A study of Capra hircus with 90 samples.

Results

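The effect of 3 h of CO2 was compared between 3 sites of the goat brainstem: the nucleus of the solitary tract (NTS), the ventral respiratory column (VRC) and the retrotrapezoid nucleus (RTN). The comparison used 36 of the 90 libraries of the series, chosen by their labels: 6 libraries from each site after 3 h of CO2 and 6 from each site in room air. They came from 12 goats, each of which was taken to have given 1 punch at each site. The animals were outbred female goats, at least 2 years old, put into their groups at random. The 3 h CO2 group breathed 6% CO2 for 3 h, and the 24 h room-air group was housed without added CO2 for 24 h. No room-air group of 3 h was part of the design, so the length of housing and the CO2 cannot be told apart. The NTS was punched at 0 to 2 mm rostral to the obex, the VRC at 2 to 4 mm and the RTN at 8 to 10 mm. The VRC punch was meant to hold the pre-Bötzinger complex, so it spans more than one nucleus. All 36 libraries belong to the first of the study's 2 batches of RNA extraction and sequencing. Each punch is bulk tissue, in which fewer cells of a type and less RNA per cell cannot be told apart.

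The NTS receives afferents from chemoreceptors and lungs, the VRC holds the neurons that generate the breathing rhythm, and the RTN holds neurons that respond to CO2. Inhaled CO2 widens brain vessels and raises blood flow, and the vascular endothelial growth factors and the oxygen-sensing prolyl hydroxylases belong to the systems that tie vessels to tissue gases. An effect that differs between sites is an interaction: the change at one site minus the change at another. Because each goat served as its own comparison between sites, differences in overall level between goats drop out of it.

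The libraries held a median of 19.2 M to 24.7 M counts per group, with a lowest of 9.64 M in an NTS library after 3 h of CO2 and a highest of 30.4 M. Of the site markers listed, SHOX2, a homeobox gene, was the only one that could be named in the count table. SHOX2 ranged over 0.153 to 27.6 CPM after 3 h of CO2 and 0.0357 to 6.09 CPM in room air in the NTS. Its range was 5.95 to 13.4 CPM after CO2 and 4.9 to 10.2 CPM in room air in the VRC, and 11.2 to 84.2 CPM after CO2 and 14.2 to 56.8 CPM in room air in the RTN. CPM are counts scaled to library size with TMM factors. The NTS libraries of goats 5 and 6 of both exposures stood apart from the other 8 NTS libraries on the first principal component, which held 33.5% of the NTS variance. In these 4 libraries SHOX2 stood at 3.84 to 27.6 CPM, and PRPH, a neurofilament-like protein of peripheral and cranial-nerve neurons, at 212 to 1100 CPM. In the other NTS libraries the highest value of PRPH was 5.78 CPM. Without these 4 libraries, 16 genes passed in VRC minus NTS and 2 in VRC minus RTN, against 0 and 1 with them. PRPH was uneven in the RTN as well, at 28.1 to 954 CPM after CO2 and 41.3 to 694 CPM in room air. After CO2 it was lowest in RTN libraries 1 and 3, at 28.1 and 153 CPM. In the VRC its highest value was 19.6 CPM. The first principal component of the RTN held 22.3% of its variance. On it, RTN libraries of CO2 goats 1 to 6 scored -34.2, 4.86, -20.9, 27.2, 46.1 and 37.7. Those of room-air goats 1 to 6 scored -5.61, -28.2, -38.3, -29.3, 25.1 and 15.6. What these scores and the uneven PRPH levels of the RTN mean for the differences of effect was not tested. No astrocyte marker of the 7 listed could be named.

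Among 16094 genes tested, the effect of CO2 differed between VRC and RTN for 1 gene, VEGFB, at an adjusted p under 0.05 (0.00621% of genes tested). In the same test the effect differed for 0 genes (0%) between VRC and NTS and for 0 genes (0%) between RTN and NTS. The test was edgeR's quasi-likelihood test with the goat as a block and Benjamini-Hochberg adjustment over all genes. Without adjustment, 1959 genes had a p under 0.05 between VRC and NTS (12.2%), 642 between RTN and NTS (3.99%) and 1009 between VRC and RTN (6.27%), against 804.7 that chance would give in each. The joint test over the 3 sites called VEGFB (0.00621%, adjusted p = 0.00803) and gave 1430 genes at an unadjusted p under 0.05 (8.89%). The VRC minus RTN genes leaned to one side: 706 were lower (4.39%) and 303 higher (1.88%), where lower means that the effect in the VRC was below that in the RTN. The lowest adjusted p was 0.153 between VRC and NTS and 0.997 between RTN and NTS. DESeq2 with the same goat block gave 84, 0 and 120 genes for VRC minus NTS, RTN minus NTS and VRC minus RTN, and limma voom gave 0, 0 and 27, so the numbers of genes depend on the test used.

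At the single sites, the effect of CO2 itself was called for 2 genes in the NTS (0.0124%), 14 in the VRC (0.087%) and 0 in the RTN (0%). Unadjusted p values under 0.05 numbered 1243 in the NTS (7.72%), 1538 in the VRC (9.56%) and 890 in the RTN (5.53%). The NTS genes were HYAL2 and NOS3. The VRC genes with a symbol were HYAL2, VEGFA, THBD, SLC2A4RG, RHBDD3, SOX21, VEGFB and TUBB6.

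VEGFB (ENSCHIG00000024766) encodes a growth factor of the VEGF family that binds the receptor FLT1. In the VRC, VEGFB had a lowest, median and highest level of 12.8, 15.8 and 22.3 CPM after 3 h of CO2, against 28.9, 30.5 and 39.2 CPM in room air. In the RTN, VEGFB had 18.7, 25 and 29.4 CPM after CO2, against 15.9, 18.1 and 21.7 CPM in room air. In the NTS, VEGFB had 14.9, 18.1 and 40.7 CPM after CO2, against 16, 19.5 and 24.5 CPM in room air. The groups did not overlap in the VRC, where every CO2 library was below every room-air library, and they overlapped in the RTN and NTS. The log2 effect of CO2 on VEGFB was -0.90 in the VRC (SE 0.169), a fall that passed edgeR's test (adjusted p = 0.0238). The log2 effects in the RTN and NTS were 0.41 (SE 0.170) and 0.13 (SE 0.169) and did not pass the test, with adjusted p of 0.858 and 0.895.

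The VEGFB effect in the VRC minus that in the RTN was -1.33 on the log2 scale (SE 0.191, 95% interval -1.73 to -0.94, adjusted p = 0.00297 by edgeR). The difference from the NTS was -0.996 (SE 0.192, interval -1.39 to -0.60), with an adjusted p of 0.153. The RTN minus NTS difference was 0.34 (SE 0.192, interval -0.06 to 0.73). Within single goats the VRC minus RTN difference in VEGFB level was -0.525 log2 CPM on average after CO2, with a range of -0.866 to -0.0875, against 0.806 in room air, with a range of 0.558 to 1.22. VEGFB was lower in the VRC than in the RTN in 6 of 6 CO2 goats and higher in 6 of 6 room-air goats. The exact two-sided permutation test of these goats gave p = 0.00216, the smallest that the assignments of 12 goats can give. These are the goats of the fit above, so the test is no separate support. Of all genes tested, 71 (0.441%) had CO2 goats wholly below room-air goats in this measure and 8 (0.0497%) wholly above. VEGFB goats did not overlap in VRC minus NTS either, with means of -0.26 after CO2 and 0.713 in room air. There, 64 genes (0.398%) had CO2 goats wholly below and 31 (0.193%) wholly above; for RTN minus NTS it was 13 (0.0808%) and 10 (0.0621%).

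**Figure D1:**
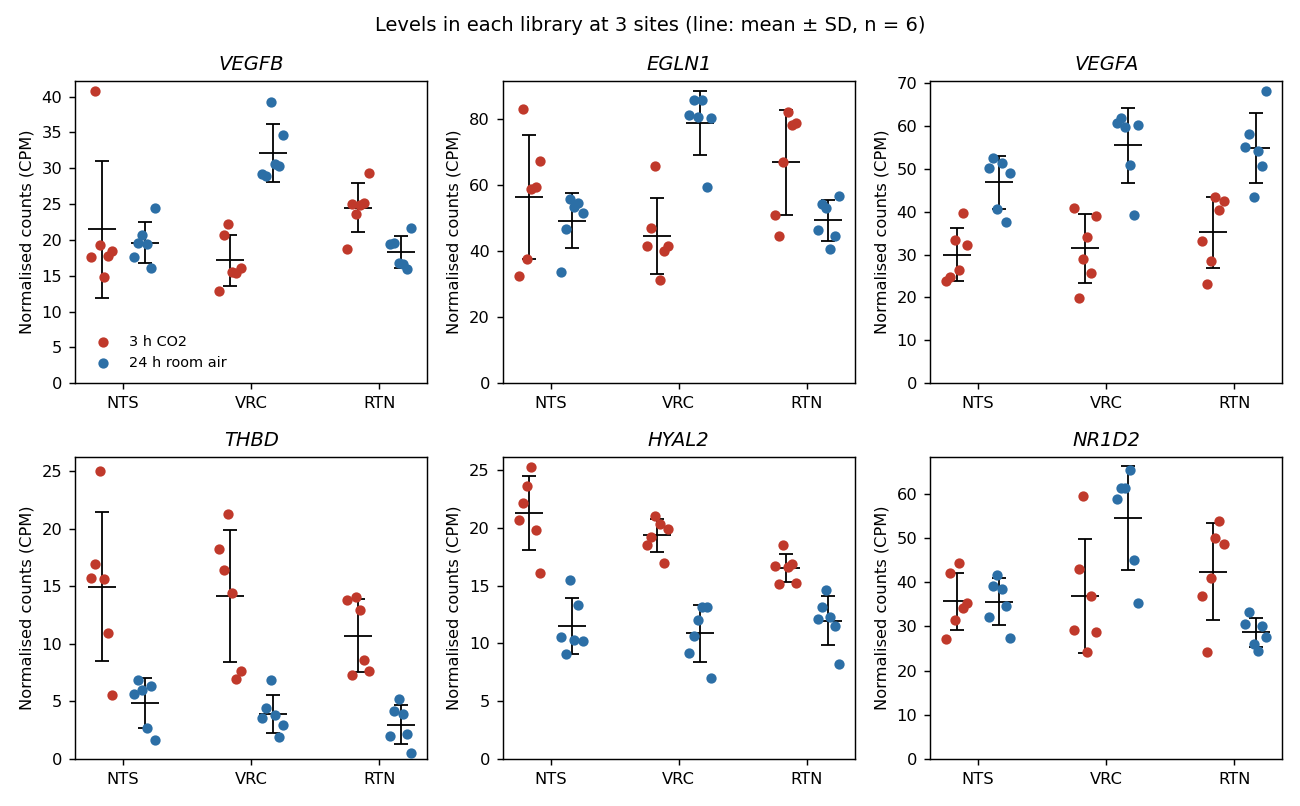
Levels (CPM, linear axis from 0) of 6 genes in each library of the NTS, VRC and RTN after 3 h of CO2 (red) and in 24 h room air (blue); points are libraries and lines are means ± SD of 6. VEGFB and EGLN1 are low after CO2 in the VRC but not in the RTN, while VEGFA, THBD and HYAL2 shift the same way at every site.

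EGLN1 (ENSCHIG00000015968), the prolyl hydroxylase that uses oxygen to mark hypoxia-inducible factors for breakdown, had the same form as VEGFB but did not pass the test. In the VRC its lowest, median and highest levels were 31.3, 41.6 and 65.7 CPM after CO2, against 59.5, 81.0 and 85.9 CPM in room air. In the RTN, EGLN1 had 44.6, 72.7 and 82.4 CPM after CO2, against 40.6, 49.9 and 56.8 CPM in room air. In the NTS, EGLN1 had 32.5, 59.3 and 83.1 CPM after CO2, against 33.6, 52.5 and 55.9 CPM in room air. The groups overlapped at each site, in the VRC through 1 CO2 library at 65.7 CPM and 1 room-air library at 59.5 CPM. The log2 effects of CO2 on EGLN1 were -0.83 in the VRC (SE 0.180, adjusted p = 0.0558), 0.44 in the RTN and 0.20 in the NTS. The VRC minus RTN difference was -1.26 (SE 0.268, interval -1.81 to -0.71, adjusted p = 0.101 by edgeR), and it passed 0.05 in 5 of 12 other settings.

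Goat by goat, the VRC minus RTN difference in EGLN1 level was -0.294, 0.082, -0.032, -1.40, -0.965 and -0.922 log2 CPM in CO2 goats 1 to 6. In room-air goats 1 to 6 the EGLN1 difference was 0.806, 0.659, 0.600, 1.08, 0.412 and 0.501. The goats did not overlap (exact permutation p = 0.00216), as for 0.441% of all genes with CO2 goats wholly below. These are the goats of the fit in which EGLN1 did not pass, so the permutation test is no separate support. CO2 goats 1, 2 and 3 were near 0 for EGLN1, and CO2 goats 4, 5 and 6 were near or below -0.9. RNF157, a ubiquitin ligase, had -0.046, 0.087, 0.388, -0.985, -1.38 and -1.04 in the same CO2 goats, so the same 3 animals were lowest. DACT3, an inhibitor of Wnt signalling, had -0.154, 0.668, 0.598, -1.48, -1.41 and -1.37. For these 3 genes the spread among CO2 goats was wider than that among room-air goats, and what the goats differed in was not tested.

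**Figure D2:**
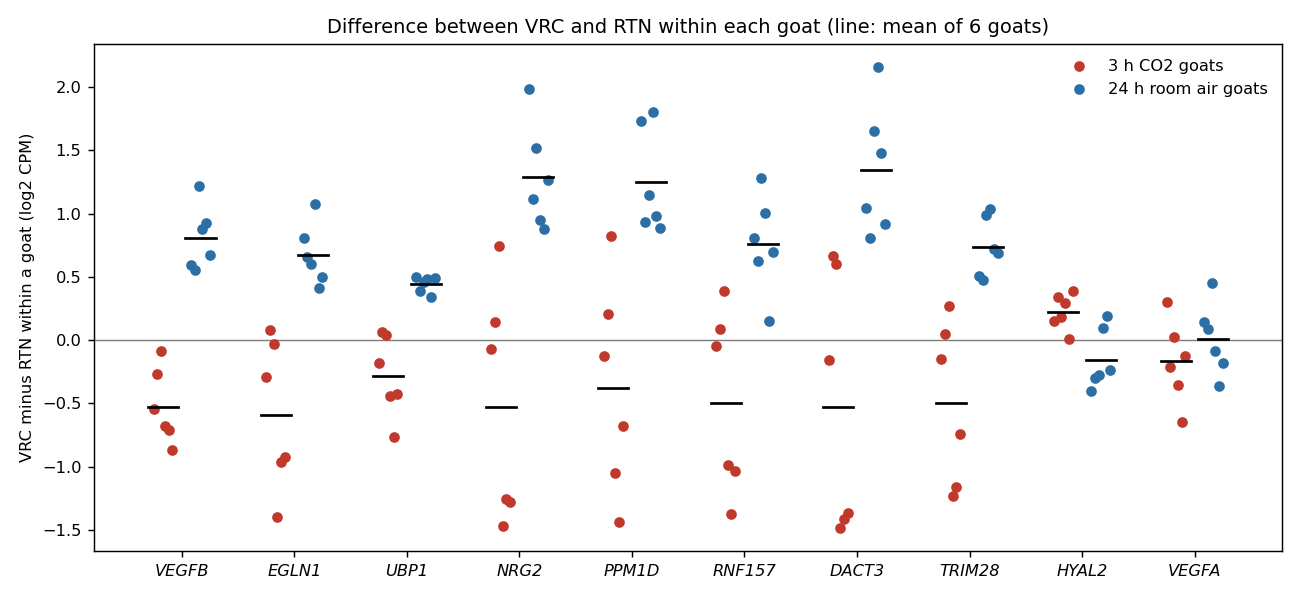
Difference between VRC and RTN within each goat (log2 CPM) for 10 genes; red points are 3 h CO2 goats 1 to 6 from left to right, blue points 24 h room-air goats, and lines the means of 6. For VEGFB all CO2 goats lie below 0 and all room-air goats above 0; for VEGFA both groups lie around 0.

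Because 1 gene passed the test, the genes described next were taken by lowest p whatever the adjusted value, a choice made after their values were seen. Each has an adjusted p above 0.05 in the goat-block fit, and its values are given as a description. Their symbols are known because the study's authors listed them in CO2 comparisons of this series, most of which share these room-air libraries, and being named therefore lends a gene no independent support. Of 234 named genes tested, 86 were lower and 5 higher at an unadjusted p under 0.05 for VRC minus RTN, against the 4.39% and 1.88% of all genes. For VRC minus NTS, 87 were lower and 44 higher, against 6.62% and 5.55% of all genes. For RTN minus NTS, 8 were lower and 10 higher, against 1.95% and 2.04%.

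Among genes with a symbol, those next to VEGFB by p in VRC minus RTN were UBP1, a transcription factor of the CP2 family, NRG2, a neuregulin that signals through ERBB receptors, and PPM1D, a phosphatase that p53 induces. UBP1 had 30.0, 35.6 and 41.8 CPM after CO2, against 39.4, 53.2 and 59.5 CPM in room air in the VRC, and 39.6, 43.9 and 51.0 CPM against 31.0, 37.7 and 45.4 CPM in the RTN. NRG2 had 5.1, 6.47 and 16.1 CPM after CO2, against 14.5, 19.1 and 22.8 CPM in room air in the VRC, and 6.82, 11.7 and 15.8 CPM against 5.7, 7.66 and 9.53 CPM in the RTN. PPM1D had 5.65, 8.33 and 20.2 CPM after CO2, against 15.5, 23.6 and 25.4 CPM in room air in the VRC, and 8.16, 11.6 and 17.7 CPM against 6.83, 8.13 and 13.3 CPM in the RTN. For all 3 the VRC medians were lower after CO2 and the RTN medians higher, with groups that overlapped at each site. The log2 differences of effect were -0.73 for UBP1 (SE 0.148), -1.87 for NRG2 (SE 0.375) and -1.63 for PPM1D (SE 0.335), each with an adjusted p of 0.0897 by edgeR. Within goats, none of these 3 genes overlapped between CO2 and room-air animals; they are among the 0.441% of genes with CO2 goats wholly below.

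TRIM28, a corepressor recruited by zinc finger proteins, had 52.9, 83.1 and 147 CPM after CO2, against 144, 149 and 159 CPM in room air in the VRC. In the RTN, TRIM28 had 89.7, 123 and 147 CPM after CO2, against 70.2, 93.1 and 110 CPM in room air. The 6 room-air libraries of the VRC lay close together for TRIM28, and 1 CO2 library reached into their range. Its VRC minus RTN difference was -1.18 (SE 0.256, adjusted p = 0.103). NCK2, an adaptor protein of receptor kinases, differed by -1.27 (SE 0.282, adjusted p = 0.116), SAPCD2, a regulator of spindle orientation, by -2.19 (SE 0.493, adjusted p = 0.120), and the lysosomal sulfatase ARSG by -0.99 (SE 0.230, adjusted p = 0.120). SOBP differed by -0.68 (SE 0.154, adjusted p = 0.120). Of the genes without a symbol, ENSCHIG00000020832 differed by -2.04 (SE 0.378, adjusted p = 0.0671).

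Among genes with a symbol, the lowest p values between VRC and NTS after VEGFB belonged to RHBDD3, a rhomboid-domain protein, CCDC85C, SLC2A4RG, a regulator of the glucose transporter gene SLC2A4, UBP1 and the zinc finger factor MAZ. RHBDD3 had 18.5, 23.6 and 29.6 CPM after CO2, against 27.1, 34.1 and 38.4 CPM in room air in the VRC, and 26.4, 33.2 and 38.5 CPM against 26.4, 29.5 and 33.4 CPM in the NTS. SLC2A4RG had 7.39, 8.17 and 12.2 CPM after CO2, against 12.6, 16.2 and 21.9 CPM in room air in the VRC, where the groups did not overlap. In the NTS, SLC2A4RG had 10.8, 15.1 and 18.4 CPM after CO2, against 9.36, 13.9 and 18.3 CPM in room air, a full overlap. The log2 differences of effect, VRC minus NTS, were -0.62 for RHBDD3 (SE 0.134) and -0.91 for SLC2A4RG (SE 0.199), both with an adjusted p of 0.153 by edgeR. The effects in the VRC themselves passed, at -0.51 for RHBDD3 (adjusted p = 0.0321) and -0.85 for SLC2A4RG (adjusted p = 0.0254). SOX21, a transcription factor of neural progenitors, also passed in the VRC at -1.36 (SE 0.292, adjusted p = 0.0496). Its difference from the NTS was -1.54 (SE 0.375, adjusted p = 0.153). ENSCHIG00000021014, without a symbol, differed by -4.89 (SE 1.02, adjusted p = 0.153) at a mean of 0.326 CPM.

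Above 0 in VRC minus NTS, the named genes of lowest p were RIPPLY2, TOMM7, NDUFA6 and RPL26L1, and none of them passed the test. NDUFA6, a subunit of respiratory complex I, had 117, 167 and 250 CPM after CO2, against 95.8, 122 and 190 CPM in room air in the VRC, and 96.4, 108 and 128 CPM against 112, 152 and 243 CPM in the NTS. Its medians were thus higher after CO2 in the VRC and lower in the NTS, with overlap at both sites. The log2 difference was 0.87 (SE 0.267, adjusted p = 0.205). RIPPLY2, a transcriptional repressor of somite formation, differed by 0.73 (SE 0.199, adjusted p = 0.168), and TOMM7, of the mitochondrial import channel, by 0.67 (SE 0.201, adjusted p = 0.205). Of the 22 listed genes of oxidative phosphorylation 7 could be named; 6 of these were higher in VRC minus NTS at an unadjusted p under 0.05 and 0 were called. The share was 5.55% of all genes and 44 of the 234 named genes. Their median difference was 0.535, against 0.0023 over all genes. Of 30 listed ribosomal protein genes 8 could be named, and 5 were higher, with a median of 0.611 and 0 called. In VRC minus RTN the medians of these lists were 0.201 and 0.12, with 0 members of either list at an unadjusted p under 0.05.

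The lists of growth and Wnt signalling lay on the other side. All 5 named of 12 growth signalling genes, NCK2, NRG2, LATS2, STK11 and AKT1, were lower at an unadjusted p under 0.05 both in VRC minus NTS and in VRC minus RTN, with medians of -1.15 and -1.27 and 0 called. Over all genes 6.62% and 4.39% were lower, and of the 234 named genes 87 and 86. Members could be named only because the authors had listed them, so these counts are a description. LATS2 is a kinase of the Hippo pathway, STK11 a kinase upstream of AMPK, and AKT1 a kinase of insulin and growth factor signalling. Of 9 Wnt genes 4 could be named, APCDD1, RHOU, DACT3 and CCDC85C. Of these, 3 were lower in VRC minus NTS (median -1.27) and 4 in VRC minus RTN (median -1.65), with 0 called. Among 10 p53 targets 4 could be named; PPM1D and PHLDA3 were lower in VRC minus RTN and VRC minus NTS, whereas BAX differed by 0.15 and 0.04 in VRC minus NTS and VRC minus RTN, and ACER2 by 0.13 and 0.07. Of the 24 genes listed for VEGF and hypoxia-inducible factors 4 could be named, and VEGFB was the 1 called. No listed immediate early gene or gene of CO2 and proton sensing could be named, so these were not analysed here.

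The oligodendrocyte factors OLIG1 and OLIG2, which drive the oligodendrocyte lineage, moved in the same direction as these lists. They were the 2 of 9 oligodendrocyte markers that could be named. Their summed level in the VRC ranged over 17.1 to 136 CPM after CO2, with a median of 38.9, against 96.1 to 147 CPM in room air, with a median of 122. In the RTN it ranged over 33.2 to 123 CPM after CO2, with a median of 81.7, against 26.0 to 69.1 CPM in room air, with a median of 36.2. In the NTS it ranged over 19.4 to 155 CPM after CO2, with a median of 53.1 and the highest value in library 2. In room air it ranged over 28.3 to 65.4 CPM there, with a median of 49.3. Both genes were lower in VRC minus NTS at an unadjusted p under 0.05 (median -1.45), with 0 called. So were 6.62% of all genes and 87 of the 234 named genes. The VRC minus RTN differences were -2.54 for OLIG1 (SE 0.604, adjusted p = 0.131) and -1.87 for OLIG2 (SE 0.488, adjusted p = 0.170). In CO2 goats 1 to 6, OLIG1 stood at 22.3, 61.9, 108, 11, 15.2 and 35.2 CPM in the VRC. In the RTN of the same goats it stood at 25.2, 33.6, 56, 68.4, 92.7 and 98.2 CPM. In CO2 goats 4, 5 and 6, OLIG1 was far lower in the VRC than in the RTN of the same goat. These goats also had the lowest VRC minus RTN differences for EGLN1, RNF157 and DACT3. In every room-air goat OLIG1 was higher in the VRC than in the RTN. The part of cell composition in the differences between sites was not tested. Of the other marker lists, 3 of 8 microglial, 3 of 9 endothelial and mural, 1 of 7 neuronal, 3 of 3 afferent, 1 of 5 choroid plexus and 2 of 5 blood genes could be named. Of all these members FOXQ1 had an unadjusted p under 0.05 in VRC minus NTS (-2.66) and in VRC minus RTN (-3.02), and CD14 in RTN minus NTS (-0.70). The choroid plexus gene TTR stood at 1890 CPM in RTN library 4 of the CO2 goats. The other RTN libraries after CO2 held at most 3.24 CPM of TTR. It stood at 156 CPM in NTS library 2 of the CO2 goats, and the other NTS libraries after CO2 held at most 10 CPM. In the VRC, TTR stood at 34, 13.9 and 16.3 CPM in CO2 goats 4, 5 and 6, and at most at 5.18 CPM in CO2 goats 1, 2 and 3. The highest value of TTR in room air was 5.81 CPM at any site, and 2.6 CPM in the VRC.

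Effects of opposite sign at 2 sites were sought with a test that needs both site effects to pass. By this intersection-union test on edgeR's site effects 0 genes passed an adjusted p of 0.05 in any pair of sites. Estimates alone had opposite signs for 48.1% of genes in VRC and NTS, 39.3% in RTN and NTS and 39.5% in VRC and RTN. With an unadjusted p under 0.05 at both sites, 76 genes had opposite effects in VRC and NTS (0.472%), 6 in RTN and NTS (0.0373%) and 75 in VRC and RTN (0.466%). In VRC and RTN, 72 of the 75 were lower after CO2 in the VRC and higher in the RTN. In VRC and NTS, 51 were lower and 25 higher in the VRC. For VEGFB the effects in VRC and RTN were opposite in sign, but that in the RTN alone did not pass, so the called difference does not show 2 opposite effects.

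RNF157 had the lowest p of the genes with a symbol and opposite effects in VRC and RTN. It had 19.8, 26.4 and 45.5 CPM after CO2, against 30.0, 45.9 and 54.4 CPM in room air in the VRC, and 28.1, 40.8 and 51.6 CPM against 21.5, 26.8 and 29.3 CPM in the RTN. The log2 effects on RNF157 were -0.63 in the VRC (SE 0.171) and 0.64 in the RTN (SE 0.172), with an adjusted p of 0.101 for their difference. NR1D2, a repressor of the circadian clock, had 24.1, 33.1 and 59.5 CPM after CO2, against 35.4, 60.2 and 65.4 CPM in room air in the VRC, and 24.1, 44.8 and 53.9 CPM against 24.4, 28.8 and 33.3 CPM in the RTN. Its log2 effects were -0.56 (SE 0.179) and 0.56 (SE 0.182), and 0.00 in the NTS (difference between VRC and RTN -1.12, adjusted p = 0.120). For both genes the groups overlapped at each site. The retinol dehydrogenase RDH10 had effects of -0.64 in the VRC and 0.55 in the RTN, and the serine protease HTRA1 -0.99 and 1.03. FOXQ1, a transcription factor of brain endothelium, had -1.23 in the VRC and 1.69 in the RTN, at a mean of 0.932 CPM.

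**Figure D3:**
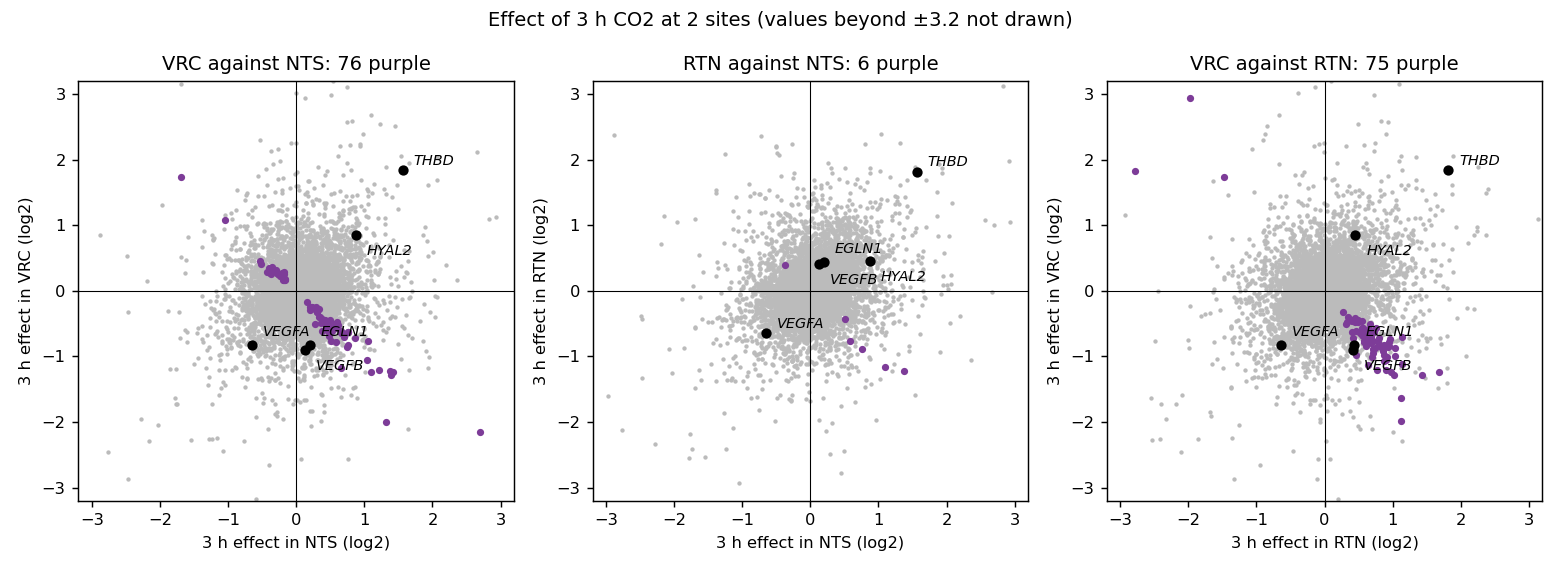
Log2 effect of 3 h of CO2 (CO2 minus room air) at one site against another for all genes tested; purple points have opposite signs with an unadjusted p under 0.05 at both sites, and black points are named. In the right panel 72 of 75 purple points lie at lower right, higher after CO2 in the RTN and lower in the VRC; THBD lies high at all sites.

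Of 17 listed flow-responsive and endothelial genes 6 could be named, THBD, NOS3, HYAL2, TUBB6, ACVRL1 and RHBDF1. The estimated effect of each was above 0 at all 3 sites, though most of these effects did not pass, and 0 were called in any difference between sites. At an unadjusted p under 0.05, 2 were lower in RTN minus NTS and 1 higher in VRC minus RTN, against 1.95% and 1.88% of all genes. THBD, the endothelial thrombin receptor thrombomodulin, had 6.98, 15.5 and 21.3 CPM after CO2, against 1.88, 3.72 and 6.82 CPM in room air in the VRC. In the RTN, THBD had 7.26, 10.8 and 14.1 CPM after CO2, against 0.487, 3.03 and 5.19 CPM in room air. In the NTS, THBD had 5.59, 15.7 and 25 CPM after CO2, against 1.64, 5.78 and 6.86 CPM in room air. The groups did not overlap in the VRC and RTN. The log2 effect of 1.84 in the VRC passed (adjusted p = 0.0238). The effects of 1.82 at the RTN and 1.57 at the NTS did not (adjusted p = 0.0958 and 0.0963). The VRC minus RTN difference of effect for THBD was -0.11 with a 95% interval of -0.84 to 0.62, so the data are compatible with differences within that interval.

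VEGFA, the main growth factor of vessels, lay lower after CO2 at each site, with log2 effects of -0.65 in both the NTS and the RTN. Its effect of -0.82 in the VRC passed (adjusted p = 0.0238). In the VRC, VEGFA had 20, 31.5 and 40.9 CPM after CO2, against 39.4, 59.9 and 62.0 CPM in room air, and in the RTN 23.1, 36.8 and 43.5 CPM against 43.6, 54.6 and 68.1 CPM. Its VRC minus RTN difference was -0.16 (interval -0.53 to 0.21). The test of VEGFB minus VEGFA was not made, so the ligands are not shown to differ from each other. TUBB6, a tubulin, had an effect of 1.24 in the VRC (adjusted p = 0.0238) and of 0.87 in the RTN, and a VRC minus RTN difference of 0.37 (interval -0.01 to 0.75). NOS3, the endothelial nitric oxide synthase, rose in the NTS (0.94, adjusted p = 0.0111) and had effects of 0.72 at the VRC and 0.65 at the RTN, with a RTN minus NTS difference of -0.25 (interval -0.74 to 0.23).

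HYAL2, a hyaluronidase, rose in the NTS (0.87, adjusted p = 0.00497) and in the VRC (0.85, adjusted p = 0.0121), while its effect in the RTN was 0.45 (adjusted p = 0.688). In the RTN, HYAL2 had 15.2, 16.7 and 18.5 CPM after CO2, against 8.22, 12.2 and 14.6 CPM in room air, groups that did not overlap. In the NTS it had 16.1, 21.5 and 25.2 CPM after CO2, against 9.06, 10.4 and 15.5 CPM in room air, and in the VRC 17.0, 19.6 and 21.0 CPM against 6.98, 11.4 and 13.1 CPM. The RTN minus NTS difference of effect was -0.42 (SE 0.159, interval -0.75 to -0.10, adjusted p = 0.997), so passing at one site and not at another is not a called difference between them. The other genes of low p in RTN minus NTS included ACVRL1, a receptor for BMP ligands on endothelial cells (-0.54, SE 0.219), VEGFC, the growth factor of lymph vessels (-0.51, SE 0.243), and CD14, a myeloid receptor (-0.70, SE 0.265), each with an adjusted p of 0.997. Fitted to 1 site's 12 libraries alone, HYAL2 and NOS3 in the NTS had adjusted p of 0.205, and HYAL2, VEGFA and TUBB6 in the VRC 0.0523, 0.106 and 0.106, above the threshold in each case. VEGFB and THBD in the VRC each had 0.0492 in that fit, and RHBDD3, SLC2A4RG and SOX21 were not read from it.

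Levels were also read in all 15 groups of the series. The named genes that were lowest in VRC minus RTN or VRC minus NTS number 20 in all, and 18 of them had their highest mean of 15 groups in the VRC of 24 h room-air goats, as had 8.38% of all genes tested. Of all 706 genes lower in VRC minus RTN at an unadjusted p under 0.05, 261 (37%) did. Among the 20 named genes, RHBDD3 and MAZ were the exceptions. VEGFB averaged 17.1 ± 3.58 CPM in the VRC after 3 h of CO2, against 32.1 ± 4.02 CPM in 24 h room air (SD, n = 6 each). The VRC of 7 d room-air goats, of the second batch, averaged 18.0 CPM for VEGFB. EGLN1 averaged 44.6 CPM in the VRC after 3 h of CO2, against 79.0 CPM in 24 h room air, and 35.8 CPM in 7 d room air. PPM1D averaged 10.3 CPM after 3 h of CO2, against 21.4 CPM in 24 h room air, and 8.36 CPM in 7 d room air. For RHBDD3 and SLC2A4RG, both called in the VRC, the 7 d room-air mean lay nearer to 24 h room air than to 3 h CO2. RHBDD3 averaged 23.7 CPM after 3 h of CO2, against 33.8 CPM in 24 h room air, and 35.5 CPM in 7 d room air. SLC2A4RG averaged 8.92 CPM after 3 h of CO2, against 16.1 CPM in 24 h room air, and 13.7 CPM in 7 d room air. SOX21, also called in the VRC, averaged 5.92 CPM there in 24 h room air but 2.18 CPM in 7 d room air. Time in room air and batch cannot be told apart between these groups, and no test was made across batches. The genes were chosen for low values of a difference in which the 24 h room-air VRC counts with a minus sign, so a high rank there is partly set by the choice.

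**Figure D4:**
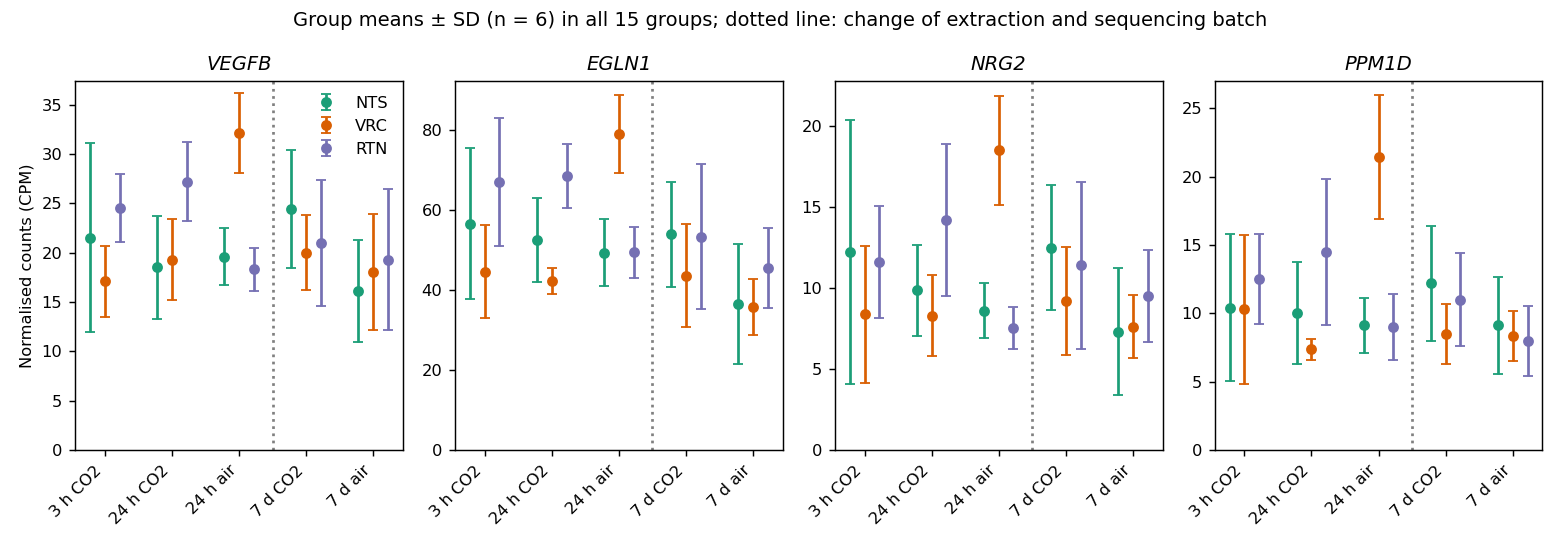
Group means ± SD (CPM, n = 6) of VEGFB, EGLN1, NRG2 and PPM1D at the NTS, VRC and RTN in all 15 groups; the dotted line separates the first from the second batch. For all 4 genes the VRC of 24 h room-air goats has the highest mean, and the VRC of 7 d room-air goats does not.

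The number of genes that passed moved with single libraries. VRC library 3 of the CO2 goats had the highest level of its 6 for 18 of the 20 lowest genes. This was counted for these 20 genes alone, which were chosen by low p, and not over all genes tested. Without VRC library 3 of the CO2 goats 145 genes passed in VRC minus RTN and 85 in VRC minus NTS, in place of 1 and 0. Without RTN library 2 of the CO2 goats 107 genes passed in VRC minus RTN, without NTS library 2 of the CO2 goats 30, and without RTN library 3 of the CO2 goats 8. It was 2 or 3 without NTS library 1, RTN library 1 or RTN library 2 of the room-air goats, or without VRC library 2 or RTN library 1 of the CO2 goats, and 1 without any other. Without the whole CO2 goat 3 the number was 126, and without CO2 goat 2 it was 80; it was 2 or 3 without CO2 goat 1 or room-air goat 1 or 2. VEGFB passed in VRC minus RTN in 48 of 48 fits that left out a library or a goat, with adjusted p between 3.39e-05 and 0.0318 by edgeR.

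**Figure D5:**
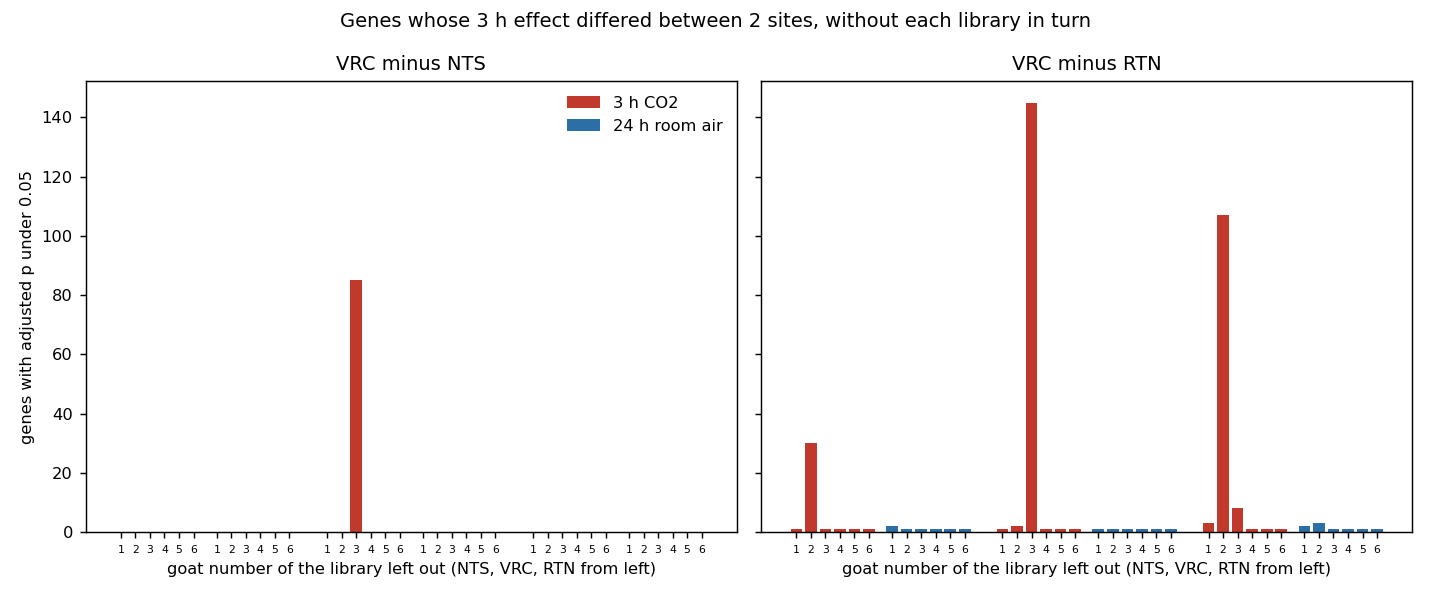
Number of genes with an adjusted p under 0.05 in VRC minus NTS (left) and VRC minus RTN (right) when each of the 36 libraries was left out in turn; bars run by site (NTS, VRC, RTN) and, within a site, 3 h CO2 (red) before 24 h room air (blue). Most bars stand at 0 or 1, and the highest, 85 and 145, belong to the fit without VRC library 3 of the CO2 goats.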

How the data were processed

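Bulk RNA was sequenced from brainstem punches as 100-bp read pairs from SMART-Seq v4 libraries, per the labels' protocols. Per the submitters' processing notes, the tools were edgeR 4.6, featureCounts 2.0.6, STAR 2.7.10b and fastp 0.24.0. The genome build is not given in the sources used here. In all, the authors deposited raw counts of 25144 Ensembl goat genes, and gene tables whose fold changes and abundances are log2 values, whose likelihood ratio is a score and whose PValue and FDR are p-values, per the file headers. The deposited tables were used for symbols alone: 238 symbols were linked by matching abundance to a fit over all 90 libraries. The log2 fold changes of matched entries then differed by at most 0.00151. How counting treated strand, and so overlapping genes, is not given.

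In R 4.3.3 with edgeR 4.0.16, 36 libraries were normalised by TMM and filtered with filterByExpr, which left 16094 genes. Differences of effect between sites were fitted with the goat (exposure and replicate number) as a block (glmQLFit, legacy=FALSE, robust=TRUE), and effects at a site without the block. Benjamini-Hochberg adjustment ran over all genes. The code was tested on simulated data. SE is the log2 value divided by the root of F. Within-goat differences used log2 CPM with a prior count of 2. The same number denoted the same goat at each site: residuals of same-numbered libraries correlated with a median of 0.276, above 0.1 in 35 of 36 pairs, against -0.0508 for other numbers. The labels do not state this pairing in words.

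Members and gene lists were chosen with earlier results of these data known. The naming rule took, per pair of sites and direction, the 12 named genes of lowest p past 0.05 with a mean of at least 1 CPM, list members past 0.05, and EGLN1, VEGFB, VEGFA, THBD, TUBB6, HYAL2 and NOS3 whatever their p. Since 1 gene passed, the threshold was dropped after the values were seen, which gave 58 genes. Alternatives were no goat block, legacy=TRUE, RLE factors, other filters (1 CPM in 6 libraries, or none), limma 3.58.1 voom, DESeq2 1.42.0, other sets of libraries and leaving out each library or goat. No set test was run.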

Additional observations from a re-analysis of the deposited data

Results flagged for a closer look

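VEGFB was the 1 gene whose 3 h effect differed between sites by the test of the difference itself, at -1.33 on the log2 scale for VRC minus RTN. A single library lay far from the others of its group in 5 of the 78 groups of libraries examined, where chance marks about 1 in 20. The number is thus near that share. Of these 5, 4 were NTS library 2 of the CO2 goats, in genes of lowest p in VRC minus RTN, so they are not separate observations. That library held 40.7 CPM of VEGFB, where the nearest library held 19.3 CPM. It held 53.3 CPM of UBP1 (nearest 40.7 CPM), 28.4 CPM of NRG2 (nearest 10.2 CPM) and 21.3 CPM of PPM1D (nearest 8.65 CPM). The same library had the highest summed OLIG1 and OLIG2 of its group, 155 CPM. The remaining one was VRC library 5 of the room-air goats, with 59.5 CPM of EGLN1, where the nearest held 80.5 CPM. What sets these libraries apart was not tested.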

How the results depend on the processing

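The counts of genes given here are for VRC minus NTS, VRC minus RTN and the test over the 3 sites, which were 0, 1 and 1. Without the replicate block they were 0, 0 and 0, and VEGFB in VRC minus RTN had an adjusted p of 0.0588. Limma voom with the goat as a random replicate block gave 0, 27 and 17, and DESeq2 84, 120 and 96. A fit of all first-batch libraries gave 76, 123 and 107. Of the alternatives added after the data were seen, the first batch without its shallowest library gave 66, 98 and 59, and without the replicate block 0, 18 and 11. Without the 4 NTS libraries that stood apart the counts were 16, 2 and 11. RLE factors, both other filters and legacy=TRUE gave 0, 1 and 1 again, and the libraries of the 2 sites alone, also added after the data were seen, 0 and 1 for the pairs. Leaving out each goat gave 0 to 29, 1 to 126 and 0 to 81, and each library 0 to 85, 1 to 145 and 1 to 93. RTN minus NTS gave 0 to 1 in all of these, and opposite signs 0. All 27 voom genes and 106 of the 120 DESeq2 genes of VRC minus RTN were among the 123 of the first batch. The causes of these shifts were not tested. Of the values rerun, 1 pair of sites for each named gene, none reversed, and VEGFB in VRC minus RTN passed in 11 of 12 settings. The shared room-air libraries, 6 a group, and the 234 named genes limit what can be described.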
